A study of Mus musculus with 6 samples.

Results

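Rn7sk, Rny1, Rny3, Vaultrc5, Rmrp, Rpph1, Rn7s1 and Rn7s2 are the mouse genes for 7SK RNA, the Y RNAs, vault RNA, the RNA subunits of RNase MRP and RNase P, and 7SL RNA. They were taken as a list of RNA polymerase III transcripts, and their Ensembl identifiers were looked up in the GENCODE vM21 annotation by symbol. The 8 symbols were found among the 54547 genes of the count files under 9 identifiers, since Rmrp has 2 entries. Of the 8 RNAs, 7 had a count in at least 1 library and 5 had enough counts for a test between genotypes.

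The counts come from small RNA sequencing of regulatory T (Treg) cells, the Foxp3-expressing CD4+ T cells that restrain immune responses, sorted by flow cytometry from the thymus of mice 7 weeks of age with a strain background labelled C5BL6/N. There were 3 libraries from wild-type (WT) mice and 3 from mice lacking miR-181a/b-1 (miR-181a/b-1-/-, called deficient below), a microRNA cluster that sets the sensitivity of T cell receptor signalling. According to the methods each library was made from the pooled thymi of several mice with the SMARTer small RNA kit, so the values are those of pools and not of single animals. The labels and the methods give the thymus as the source, but the study's results text calls the sequenced cells peripheral, so the tissue is stated here as labelled. The age and strain labels were the same for both genotypes, and the labels name no treatment.

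RNA polymerase III makes short, structured RNAs that nearly all cells need. 7SK RNA holds the elongation kinase P-TEFb in an inactive particle, and releases it when transcription by RNA polymerase II must rise. Y RNAs bind the proteins Ro60 and La and serve in RNA quality control and DNA replication. Vault RNAs are the small RNA part of the vault, a large barrel-shaped ribonucleoprotein particle of the cytoplasm. RNase P removes the leader of transfer RNA precursors, its sister enzyme RNase MRP cuts the precursor of ribosomal RNA, and 7SL RNA is the scaffold of the signal recognition particle, which brings secretory proteins to the endoplasmic reticulum.

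In the count files 7SK RNA had far more counts than the other 4 RNAs that could be tested, and its level differed more between libraries of 1 genotype than between the genotypes. RNase P RNA followed 7SK RNA from library to library within counting noise, whereas the Y RNAs and vault RNA did not. None of the 5 RNAs that could be tested passed the test of a difference between WT and miR-181a/b-1-/- Treg cells. RNase MRP RNA had no counts, and 7SL RNA hardly any. Under the counting mode assumed below, no stretch of these RNAs could be counted for a single gene. Their counts were thus not read as abundance.

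The sequences of these RNAs bear on how many reads a gene can be given. HTSeq in its default mode counts a read only if it aligns to a single place and touches exons of 1 gene only. The setting that the authors used and the read lengths are not given in the sources used here. Each member was therefore read as overlapping windows of 30 bases, and a window was called countable if it touched no exon of another annotated gene on the same strand and was not found in another annotated transcript. Copies outside annotated transcripts were not searched, since no genome sequence was used. The numbers of countable windows hold for this window length and counting mode only, and are a description of the annotation and not of what was counted. All sequences below are GENCODE vM21 transcripts (GRCm38), written 5′ to 3′.

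Rn7sk (ENSMUSG00000065037.1) is a single transcript of 331 bases on the minus strand at chr9:78175303-78175633. It is shown in 2 stretches because it has the most counts and because few of its windows were countable. Capitals mark the bases that lie in a countable window, which are 109 in number and all near the 3′ end.
Rn7sk, bases 1 to 165: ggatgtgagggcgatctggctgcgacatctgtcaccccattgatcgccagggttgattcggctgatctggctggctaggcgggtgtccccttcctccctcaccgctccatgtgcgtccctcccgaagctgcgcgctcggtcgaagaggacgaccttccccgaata
Rn7sk, bases 166 to 331: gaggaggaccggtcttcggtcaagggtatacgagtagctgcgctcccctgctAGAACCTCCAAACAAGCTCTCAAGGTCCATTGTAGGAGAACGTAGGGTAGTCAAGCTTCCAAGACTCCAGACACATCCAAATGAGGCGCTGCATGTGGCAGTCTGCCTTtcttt

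Of the 302 windows of Rn7sk, 80 were countable. The other 222 were also found in annotated copies of 7SK, 30 genes of the class misc_RNA. Of these 30 copies, 11 had a count, and they held 985 counts over the 6 libraries, of which all but 24 fell on Gm23037 (ENSMUSG00000065808.1). Gm23037 lies on the plus strand at chr17:46403875-46404198, inside the gene Zfp318, and is identical to Rn7sk in 89.2% of aligned positions. Its last 100 bases are shown because they hold the longest run shared with Rn7sk, 34 bases that reach the 3′ end of both (Rn7sk bases 298 to 331) and are given in capitals.
Gm23037, bases 225 to 324: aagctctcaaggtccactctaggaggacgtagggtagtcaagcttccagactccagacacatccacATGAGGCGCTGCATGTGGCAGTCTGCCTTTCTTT

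The Y RNA genes lie 6343 bases apart, Rny3 (ENSMUSG00000064945.1) on the plus strand at chr6:47781624-47781725 and Rny1 (ENSMUSG00000065701.1) on the minus strand at chr6:47788069-47788180. They are shown together to let them be compared, with runs of at least 8 bases found in both in capitals. The aligned pair is identical in 72.3% of positions, and the longest shared run has 12 bases.
Rny1: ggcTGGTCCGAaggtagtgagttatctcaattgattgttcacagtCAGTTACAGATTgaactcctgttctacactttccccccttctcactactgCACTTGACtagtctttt
Rny3: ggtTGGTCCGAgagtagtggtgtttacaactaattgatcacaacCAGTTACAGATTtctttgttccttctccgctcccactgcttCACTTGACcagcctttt

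With no shared window of 30 bases, reads of that length from Rny1 and Rny3 can be told apart. All 73 windows of Rny3 were countable, against 51 of 83 for Rny1. The 32 that were not lie in bases 8 to 68 and are shared with Gm26168, a misc_RNA gene with 0 counts in each of the 6 libraries. Both Y RNAs end in a run of 4 T, the form of an RNA polymerase III terminator, and Rn7sk ends in 3. The annotated transcripts of Rn7s1 and Rn7s2 end in 2 T, and those of Rpph1 and both Rmrp entries in 0.

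Rpph1 (ENSMUSG00000092837.1), the RNA subunit of RNase P, has 319 bases on the minus strand at chr14:50807449-50807767. An exon of the protein-coding gene Ccnb1ip1 covers 233 of these bases on the same strand. Its ends are shown because they are the only parts that belong to Rpph1 alone.
Rpph1, bases 1 to 35: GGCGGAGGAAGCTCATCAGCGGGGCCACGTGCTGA
Rpph1, bases 269 to 319: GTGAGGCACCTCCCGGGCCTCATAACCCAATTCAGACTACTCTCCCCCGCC

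Of the 290 windows of Rpph1, 28 lie within these ends, and the other 262 touch the Ccnb1ip1 exon. Ccnb1ip1 itself had 1 count in the 6 libraries together.

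Rn7s1 (ENSMUSG00000099021.1, plus strand, chr12:69159295-69159594) and Rn7s2 (ENSMUSG00000099250.1, minus strand, chr12:69361182-69361481) are the mouse 7SL genes, 201587 bases apart. The 300 bases of their transcripts are the same in each position.

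With identical transcripts, neither 7SL gene had a countable window. Of their 271 windows each, 158 also touch annotated miRNA genes that lie inside them on the same strand (Gm47287 and Gm47295 in Rn7s1, Gm47299 and Gm47305 in Rn7s2), all 4 with 0 counts.

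Rmrp has a lincRNA entry of 281 bases (ENSMUSG00000115420.1, minus strand, chr4:43492783-43493063) and a ribozyme entry of 271 bases (ENSMUSG00000088088.1, chr4:43492788-43493058) nested in it on the same strand. A read of 30 bases from RNase MRP RNA would thus touch both entries, and no window of either was countable.

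**Figure D1:**
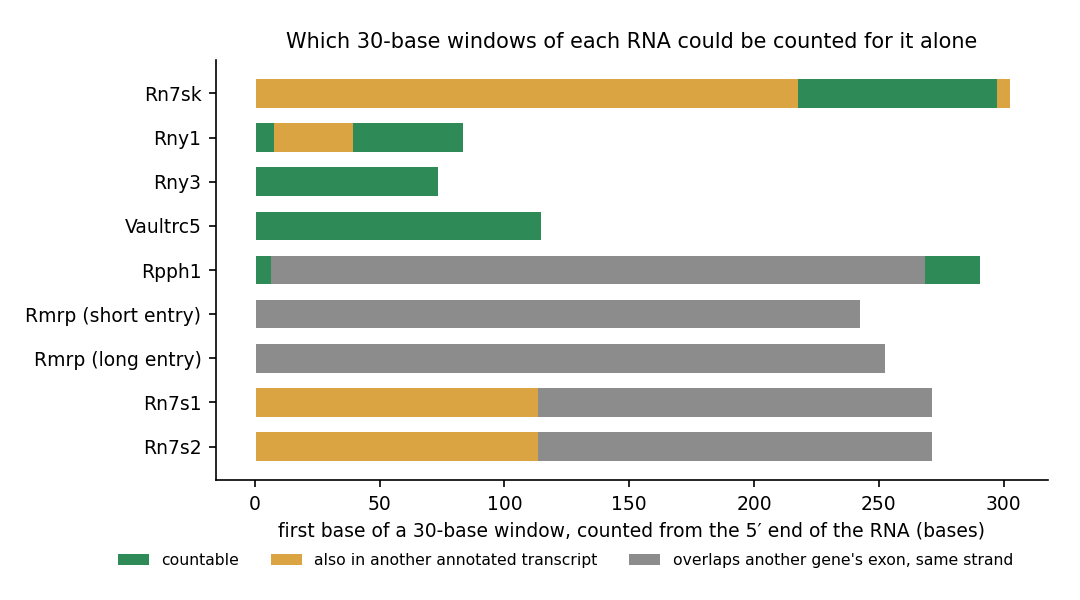
Each bar follows 1 RNA entry from its 5′ end (horizontal axis, first base of each 30-base window in bases), and its colour gives the state of the window. Rny3 and Vaultrc5 are countable throughout, Rn7sk only near its 3′ end and Rpph1 only at its ends (28 of 290 windows), and neither Rmrp entry nor Rn7s1 nor Rn7s2 has a countable window.

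Window length moved these numbers but not which RNAs had none. Rn7sk had 67 countable windows of 312 at 20 bases and 90 of 292 at 40 bases, Rny1 had 41 of 93 and 51 of 73, and Rpph1 had 48 of 300 and 12 of 280. Rmrp, Rn7s1 and Rn7s2 had 0 at each length.

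The libraries held between 168293 and 307840 gene counts, the largest being deficient replicate 3. Between 75.7% and 80.3% of the records of a library were given to no gene, of which records aligned to more than 1 place (41.7% to 46.2% of the library) and records touching more than 1 gene (20.4% to 24.0%) were the bulk. The deleted genes could not serve to check the genotype labels, since Mir181a-1 had a single count, in WT replicate 2, and Mir181b-1 had 0 in each of the 6 libraries. Of 8 Treg markers 7 were tested and none was called (the 8th, Ctla4, had 1 count), and their summed level was 1180 to 1227 CPM (counts per 1000000 gene counts of the library) in WT and 1078 to 1379 in deficient libraries. Markers of double-positive thymocytes, the stage before commitment to CD4 or CD8, had 28 counts in all (9 in WT and 19 in deficient libraries, or 4.11 to 26.7 and 26.0 to 30.8 CPM), on 5 of 7 genes, with Rag2 and Ptcra at 0, and their part in the results below was not tested. B cell markers had 66 counts on 3 of 6 genes (41.1 to 72.1 CPM in WT and 32.5 to 65.4 CPM in deficient libraries), 49 of them on Ighm, with Cd79a and Ms4a1 among those at 0. The myeloid list had 1 count on 5 genes, and the 5 erythroid genes were at 0.

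7SK RNA had the most counts of the members in each library, where RNase MRP RNA and 7SL RNA cannot be ranked because they had no countable window. Rn7sk had 3034, 3942 and 5966 counts in WT replicates 1, 2 and 3, and 2980, 3389 and 7836 counts in the deficient replicates. These counts were 1.37%, 1.76% and 2.45% of the gene counts in WT, and 1.77%, 1.74% and 2.55% in deficient Treg cells. Replicate 3 was the highest library of either genotype, WT replicate 1 was the lowest of all 6, and the genotypes overlapped. The 95% Wilson interval was 1.32% to 1.42% for the lowest library and 2.49% to 2.60% for the highest, and covers counting error only. Counts within a genotype spread far more than this, with a chi-square statistic of 376 times its degrees of freedom in WT and 248 times in deficient libraries. The means were 1.86% ± 0.55 (SD, n = 3) for WT against 2.02% ± 0.46 (SD, n = 3) for deficient Treg cells.

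RNase P RNA was next in counts. Rpph1 had 253, 289 and 456 counts in WT against 247, 264 and 636 in deficient replicates 1, 2 and 3. Scaled to the gene counts of the library, the level was 1140, 1287 and 1872 CPM in WT and 1468, 1353 and 2066 CPM in deficient Treg cells, again with both replicate 3 libraries at the top and overlap between the genotypes. The mean level was 1433 ± 387 CPM (SD, n = 3) for WT against 1629 ± 383 CPM (SD, n = 3) for deficient libraries.

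The Y RNAs had fewer counts. Rny3 had 219, 167 and 190 counts in WT and 161, 113 and 219 in deficient libraries, or 986, 744 and 780 CPM and 957, 579 and 711 CPM. Its highest library was WT replicate 1 and its lowest deficient replicate 2. Rny1 had 96, 96 and 90 counts in WT and 70, 64 and 149 in deficient libraries, or 432, 428 and 369 CPM and 416, 328 and 484 CPM. Rny1 was highest in deficient replicate 3, as were Rn7sk and Rpph1, and lowest in deficient replicate 2, as was Rny3. The WT counts of Rny1 differed by no more than counting noise, with a chi-square statistic of 0.71 times its degrees of freedom, and those of the deficient libraries by 3.45 times. For Rny3 the same statistic was 4.61 and 8.96. The means of Rny3 were 837 ± 131 CPM (SD, n = 3) for WT against 749 ± 191 CPM (SD, n = 3) for deficient Treg cells, and those of Rny1 were 410 ± 35 and 409 ± 78 CPM (SD, n = 3 each).

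Vault RNA had the fewest counts of the RNAs tested. Vaultrc5 (ENSMUSG00000065145.1) is 143 bases long, lies on the plus strand at chr18:36801866-36802008, ends in 4 T like the Y RNAs, and all 114 of its windows were countable. It had 63, 59 and 52 counts in WT and 55, 28 and 64 in deficient libraries, or 284, 263 and 213 CPM and 327, 144 and 208 CPM. The deficient libraries held both the highest level (replicate 1) and the lowest (replicate 2), with the WT libraries between. The means were 253 ± 36 CPM (SD, n = 3) for WT against 226 ± 93 CPM (SD, n = 3) for deficient Treg cells.

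**Figure D2:**
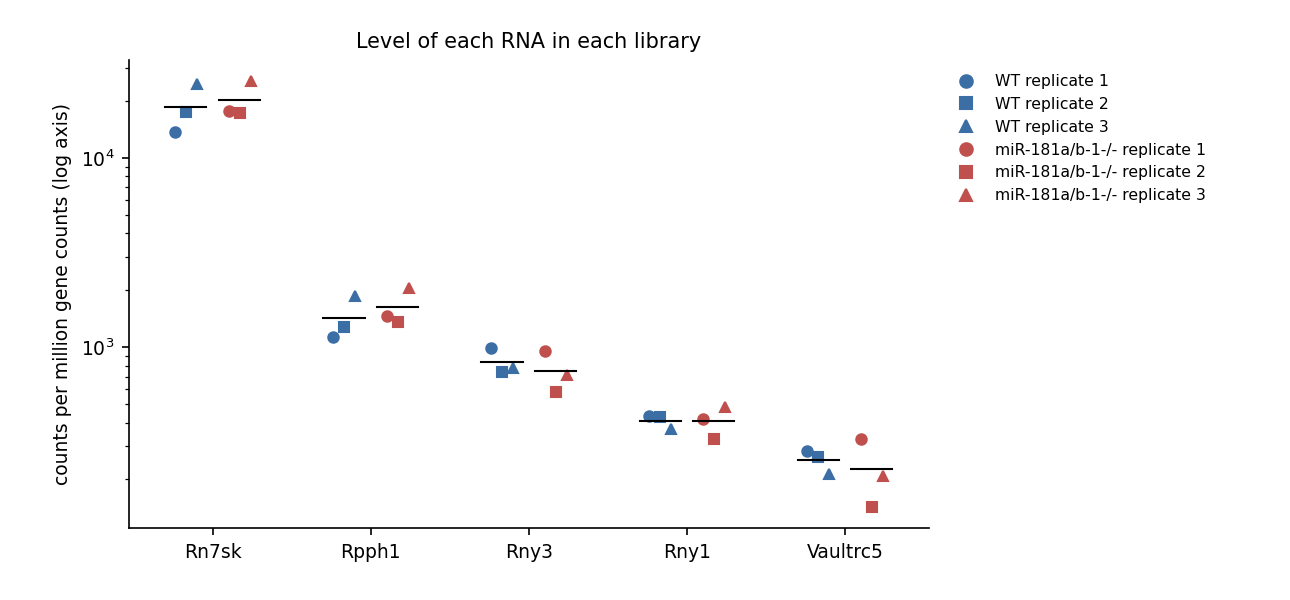
Level of the 5 tested RNAs in each library, in CPM on a log axis, with 1 point per library and a bar at the mean of the 3 libraries of a genotype. Rn7sk lies between 13666 and 25455 CPM and Vaultrc5 between 144 and 327 CPM, and the points of the genotypes overlap for each of the 5 RNAs.

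Both Rmrp entries had 0 counts in each of the 6 libraries. By counting error alone 0 counts allow up to 9.75 to 17.8 CPM of counted reads per entry, depending on the library (3 counts). As no window of either entry was countable, this is no bound on the level of RNase MRP RNA. Rn7s1 had 0, 1 and 6 counts in WT and 1, 0 and 0 in deficient libraries. Rn7s2 had 0, 2 and 2 in WT and 2, 3 and 0 in deficient libraries. These 3 RNAs did not pass the filter of 10 counts in at least 3 libraries. Rn7s1 and Rn7s2 were thus given a few counts although they had no countable window. With no countable window for any of the 3, these counts were not read as the abundance of RNase MRP RNA or 7SL RNA in Treg cells.

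Between genes, levels were compared per length. Over the 6 libraries the mean level per kilobase of transcript was 58533 CPM per kb for Rn7sk, 7774 for Rny3, 4799 for Rpph1, 3657 for Rny1 and 1676 for Vaultrc5. Rn7sk was above Rny3, and Rny1 above Vaultrc5, with no overlap of their ranges over the libraries. The ranges of Rny3 and Rpph1 overlapped although Rny3 was higher in 6 of 6 libraries, and those of Rpph1 and Rny1 overlapped with Rpph1 higher in 5 of 6. Divided by the number of countable windows instead of length, the order of Rny3 and Rpph1 turned, with 242 CPM per window for Rn7sk, 54.7 for Rpph1, 10.9 for Rny3, 8.03 for Rny1 and 2.10 for Vaultrc5. Of these 5 RNAs, Rn7sk stood first and Vaultrc5 last on both scales. The counts are reads of small RNA libraries, and how well RNAs of different length enter such libraries was not tested. Both orders are thus orders of counts and not of abundance in the cell.

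Whether the lack of miR-181a/b-1 went along with a change in these RNAs was tested with edgeR's quasi-likelihood test over the 1391 genes that passed the filter. None of the 5 RNAs was called at an adjusted p of 0.05, as was the case for each of the 1391 genes (0.0% called). At an unadjusted p of 0.05, 72 genes were called (5.18%), 37 lower and 35 higher in deficient Treg cells, and none of them was a member. DESeq2 likewise called 0 genes at an adjusted p of 0.05, and 24 at an unadjusted p of 0.05. None of the 5 RNAs had levels that separated the genotypes after normalization, which 112 of the 1391 genes (8.05%) did. In bulk samples such as these, fewer cells of a type and less RNA per cell cannot be told apart.

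The log2 fold change of miR-181a/b-1-/- over WT was 0.16 (95% interval -0.34 to 0.66) for Rn7sk, with an adjusted p of 0.98. It was 0.23 (-0.34 to 0.79) for Rpph1 and -0.16 (-0.68 to 0.37) for Rny3. For Rny1 it was 0.03 (-0.51 to 0.58), and for Vaultrc5 -0.17 (-0.77 to 0.43). All 5 differences were smaller than their own standard errors. The standard errors lay between 0.24 and 0.29, and the unadjusted p, from edgeR, between 0.415 and 0.896. In linear terms the intervals ran from 0.79-fold to 1.58-fold for Rn7sk and from 0.59-fold to 1.34-fold for Vaultrc5. The median log2 fold change was 0.03 over the 5 RNAs and -0.004 over the 1391 genes. Each sign depended on single libraries. Without WT replicate 1 the value of Rn7sk was -0.05, and without deficient replicate 3 it was -0.16, while those of Rpph1 and Rny1 were -0.10 and -0.22. Without deficient replicate 2 the values of Rny3 and Vaultrc5 were 0.01 and 0.07, and without WT replicate 3 that of Rny1 was -0.04.

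**Figure D3:**
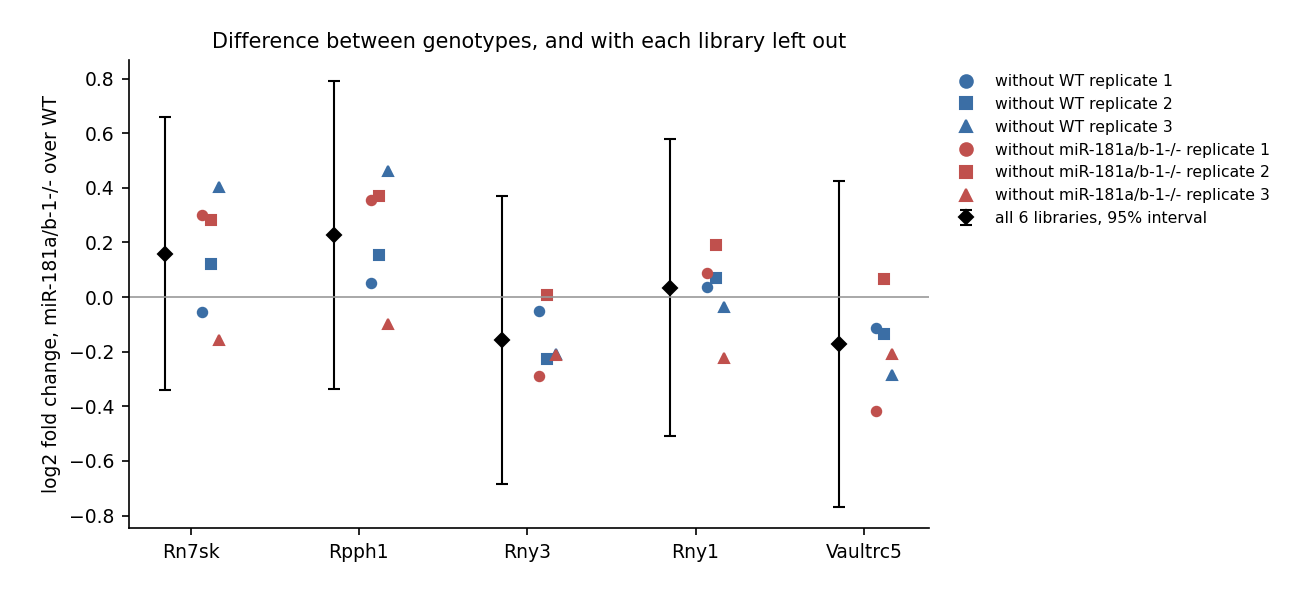
Log2 fold change of deficient (miR-181a/b-1-/-) over WT for the 5 tested RNAs, with the value from all 6 libraries and its 95% interval as a black diamond and bar, and coloured points for the values with 1 library left out. Each interval includes 0, and for each RNA at least 1 coloured point lies across the zero line from the diamond.

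Summed over the 8 RNAs, the share of gene counts was 1.65%, 2.03% and 2.78% in WT and 2.09%, 1.98% and 2.89% in deficient libraries, of which Rn7sk made up 82.8% to 88.2%. The mean was 2.15% ± 0.57 (SD, n = 3) for WT against 2.32% ± 0.50 (SD, n = 3) for deficient Treg cells, a difference smaller than the spread within either genotype. The difference, deficient minus WT, turned to -0.08 percentage points without WT replicate 1 and to -0.12 without deficient replicate 3. Without Rn7sk the shares were 0.295% ± 0.028 and 0.302% ± 0.054 (SD, n = 3 each).

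The ratio of the Y RNAs compares 2 RNAs within a library and needs no normalization between libraries. With 1 count added to each, the log2 ratio of Rny1 to Rny3 was -1.01 ± 0.20 (SD, n = 3) for WT against -0.85 ± 0.32 (SD, n = 3) for deficient Treg cells. The difference of 0.16 had p = 0.70 in an exact two-sided permutation test (0.70 after Benjamini-Hochberg adjustment over the 2 ratios computed), which cannot go below 0.1 with 3 libraries against 3. With 1 library left out the difference lay between 0.01 and 0.33. No ratio of Rn7s1 to Rn7s2 is given, since their transcripts are identical and had at most 6 counts per library. The ratio of Rmrp to Rpph1 could not be given because Rmrp had 0 counts.

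The levels of 7SK RNA and RNase P RNA differed more between libraries of 1 genotype than between the genotype means. Rn7sk and Rpph1 were each higher in both replicate 3 libraries than in the other 4 after normalization, as were 142 of the 1391 tested genes (10.2%). Among the classes with at least 10 tested genes these were 19 of 27 snRNA genes (70.4%), 36 of 106 snoRNA genes (34.0%), 5 of 13 scaRNA genes (38.5%), 4 of 25 miRNA genes (16%), 2 of 18 lincRNA genes (11.1%) and 66 of 1141 protein-coding genes (5.78%), and the rest of the 142 lay in smaller classes. The share of snRNA in the gene counts was 0.958%, 1.22% and 1.77% in WT and 1.13%, 1.21% and 1.69% in deficient libraries. The replicate numbers are not stated to mark a shared day or batch, and the part of library preparation in this pattern was not tested.

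RNase P RNA followed 7SK RNA closely. Rn7sk had 12.0, 13.6 and 13.1 counts for each Rpph1 count in WT, and 12.1, 12.8 and 12.3 in deficient libraries, so that the highest ratio was 1.14 times the lowest although the level of Rn7sk differed 1.86-fold between libraries and that of Rpph1 1.81-fold. The chi-square statistic of the 2 RNAs over the 6 libraries was 0.73 times its degrees of freedom, which is no more than counting noise. Gm23037, the copy of 7SK with nearly all of the copies' counts, had 118, 123 and 214 counts in WT and 120, 107 and 279 in deficient libraries. Its ratios to Rn7sk and to Rpph1 had statistics of 1.25 and 0.41. Its log2 fold change between genotypes was 0.19 ± 0.28 (SE), with an adjusted p of 0.98 from edgeR. Whether some counts of Gm23037 came from reads of 7SK RNA was not tested.

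The remaining RNAs did not keep a constant ratio to 7SK RNA. There were 13.9 to 35.8 Rn7sk counts per Rny3 count, 31.6 to 66.3 per Rny1 count and 48.2 to 122 per Vaultrc5 count, with chi-square statistics of 26.0, 6.19 and 10.3 times the degrees of freedom. Rny3 and vault RNA went together more closely, with 2.83 to 4.04 Rny3 counts per Vaultrc5 count and a statistic of 0.63. The highest of these ratios was 1.43 times the lowest. Vaultrc5 had only 28 to 64 counts per library, and the statistic is less sensitive at low counts. Rny3 to Rny1 gave 2.25 and Rny1 to Vaultrc5 1.83. These ratios were singled out after their values were seen and are given as a description with no test.

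**Figure D4:**
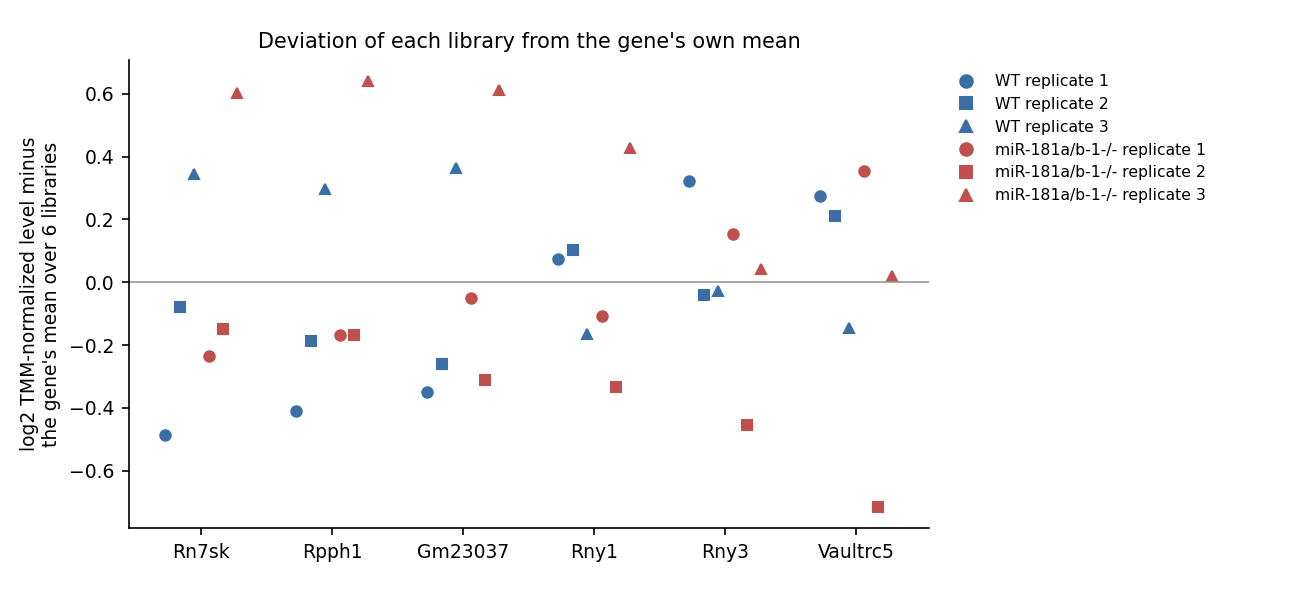
Deviation of each library from the gene's own mean (log2 of the TMM-normalized level) for 5 RNAs and the 7SK copy Gm23037, with 1 point per library. Rn7sk, Rpph1 and Gm23037 have their 2 highest points in the replicate 3 libraries of both genotypes, and Rny1, Rny3 and Vaultrc5 have their lowest in deficient replicate 2. Rny1 is highest in deficient replicate 3 but below its mean in WT replicate 3.

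Among the 1388 other tested genes with a count in each library, those whose profile over the 6 libraries was nearest to Rn7sk were Gm24407, an snRNA gene (root mean square difference of 0.046 on the log2 scale), Eef1d, which encodes a subunit of translation elongation factor 1 (0.050), and Rpph1 (0.067), against a median of 0.523 over all of them. Nearest to Rpph1 were Gm22009, an scaRNA gene (0.040), Rn7sk (0.067) and Eef1d (0.073). Rny1 came 247th from Rn7sk, Rny3 569th and Vaultrc5 809th. Eef1d had only 9 to 25 counts per library.

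The genes for proteins that work with these RNAs had few counts. In small RNA libraries such counts were not read as expression of the mRNA. Of the 7 genes for proteins of the 7SK particle, 6 had a count and 2 were tested. Larp7, which binds the 3′ end of 7SK RNA, had 129 counts in all and a log2 fold change of -0.18 ± 0.32 (SE). Ccnt1, the cyclin T1 subunit of P-TEFb, had 49 counts and a log2 fold change of -0.46 ± 0.48. Neither passed (edgeR adjusted p = 0.98 for both). Mepce, the enzyme that caps 7SK RNA, and Hexim1, the P-TEFb inhibitor, had 26 counts each.

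Of the Y RNA proteins, Ssb, which encodes La, had 107 counts and a log2 fold change of -0.06 ± 0.34 (SE), with an adjusted p of 0.99 from edgeR, and Trove2, which encodes Ro60, had 5 counts. The vault proteins Parp4, Tep1 and Mvp had 44, 9 and 9 counts, and the 11 protein subunits of RNase P and RNase MRP had 102 counts together, led by Pop4 with 19 and Pop5 with 18, and none of either list was tested. Among 8 genes for signal recognition particle proteins, Srp72 and Srp14 were tested, with log2 fold changes of -0.23 ± 0.41 and 0.13 ± 0.51 (SE) and neither called. Of 30 genes for RNA polymerase III and its factors, each had a count but only Bdp1, a subunit of the initiation factor TFIIIB, was tested (75 counts, log2 fold change 0.35 ± 0.34 SE, edgeR adjusted p = 0.98). The summed level of these 30 genes was 297 to 347 CPM in WT and 289 to 349 CPM in deficient libraries.

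A wider list of 742 symbols held 5S rRNA genes, U6 genes, RNase P-like genes, Bc1 and all other genes of the class misc_RNA. This class is not purely of RNA polymerase III, since it includes the telomerase RNA Terc. Under these symbols 751 genes were in the files, 82 had a count and 7 were tested, namely Gm23037 and 6 5S rRNA genes. None was called by edgeR at an adjusted p of 0.05. Their log2 fold changes had a median of 0.19 and a range of 0.04 to 0.79, against a median of -0.004 over all tested genes. The sign was above 0 for 7 of 7, but for 5 of 7 under TMM over small noncoding genes or without WT replicate 1, and for 2 of the 6 that were tested without deficient replicate 3. The 5S genes with the most counts, n-R5s2, n-R5s194 and n-R5s136, had 635, 330 and 273 counts, and the authors removed ribosomal RNA reads before alignment. Of 5S genes, which are near-identical copies, a read can be given to the wrong one, so single genes of this kind are uncertain. The summed level of the whole list was 1811 to 2455 CPM in WT and 1892 to 2846 CPM in deficient libraries.

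Near the members, genes within 1 kb had few counts except Rps29, which lies 108 bases from Rn7s1 on the opposite strand, encodes a ribosomal protein, and had 42 to 85 counts per library. Ccdc107, whose exon overlaps 124 bases of Rmrp on the opposite strand, had 8 counts in all. C920006O11Rik, a lincRNA gene 280 bases from Rn7sk, had 0 to 2 counts per library and Parp2, 73 bases from Rpph1, had 0 to 6.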

How the data were processed

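Counts per gene were used as deposited. According to the methods, the authors trimmed adapters with Flexbar, took out rRNA reads (Bowtie 2), and used STAR for alignment and HTSeq for counting. The submitters' processing notes give the build GRCm38.p6, and the HTSeq mode, strand setting, read length and annotation release are not given in the sources used here. Of 54547 identifiers, 51550 matched GENCODE vM21 with their version and 53706 without. Records given to no gene stayed out of totals. Sequences are GENCODE vM21 transcripts.

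Genes with at least 10 counts in at least 3 libraries were tested with edgeR 4.0.16 in R 4.3.3 (TMM, quasi-likelihood, Benjamini-Hochberg adjustment over 1391 genes, WT against miR-181a/b-1-/-). Standard errors and intervals came from the log2 fold change and the F statistic. The test was also run on simulated counts drawn independently for each gene, and the outcome is not used as support here. Ratios were tested with SciPy 1.17.1. Wilson intervals are at 95%, a count of 0 was taken to allow 3 counts, and without molecular identifiers both cover counting error only. Replicate libraries differed beyond counting noise (chi-square 2.07 to 4.20 times its degrees of freedom over genes), and p-values measure the spread between pools of thymi.

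Alternatives were DESeq2 1.42.0, no count filter, 10 counts in every library, no TMM factor, TMM over small noncoding genes, each library left out, the replicate number as a block, an unadjusted threshold, other denominators for the summed share, and 0.5 or 5 added counts for ratios. Genes named are the 8 members, the 3 nearest profiles to each of the 2 members with most counts, at most 4 genes with the most counts of each protein list, genes within 1 kb of a member, markers, Bc1 as a listed gene, and Mir181a-1 and Mir181b-1 as the deleted genes. Gm23037 and Zfp318, in which it lies, Gm26168, the overlapped genes, Terc and the single 5S genes were named after their values were seen. The members and lists were chosen with earlier results of these data known. The authors' table of miRNA genes, which also holds their DESeq2 fold changes and p-values, was not used. Some items are not reported here.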

Additional observations from a re-analysis of the deposited data

How the results depend on the processing

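For the 5 tested RNAs no alternative gave a call in either direction (0 called in each of 13 settings). Over all genes, where 0 were called, 1 was lower and 7 were higher without the count filter, and 37 were lower and 35 higher at an unadjusted p of 0.05. With 1 library left out the number ranged from 0 to 1 lower and from 0 to 5 higher, with 5 higher without miR-181a/b-1-/- replicate 1, and 1 lower and 3 higher without miR-181a/b-1-/- replicate 3. The cause was not tested. Signs turned only under TMM over small noncoding genes (Rny1, -0.0491 against 0.03) and with a library left out, where the log2 fold change ranged from -0.16 to 0.40 for Rn7sk, -0.10 to 0.46 for Rpph1, -0.22 to 0.19 for Rny1, -0.29 to 0.01 for Rny3 and -0.42 to 0.07 for Vaultrc5 (the turned values were -0.05 and -0.16 for Rn7sk, -0.10 for Rpph1, -0.04 and -0.22 for Rny1, 0.00626 for Rny3 and 0.0680 for Vaultrc5).

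The summed share differed by 0.17 percentage points of gene counts (from -0.12 to 0.48 with a library left out), -0.004 of all records, 0.39 of small noncoding counts and 0.008 without Rn7sk. The log2 ratio of Rny1 to Rny3 differed by 0.01 to 0.33 and kept its sign. That of Rn7s1 to Rn7s2 is not reported, since identical transcripts cannot be told apart. That of Rmrp to Rpph1 was not run, as Rmrp had no counts.

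With the replicate number as a block the log2 fold changes were 0.15 for Rn7sk, 0.20 for Rpph1, 0.02 for Rny1, -0.16 for Rny3 and -0.18 for Vaultrc5, and 0 genes were called, as without it. Deviations of same-numbered libraries over 1391 genes correlated at 0.219, 0.081 and 0.176, and each library correlated best with its own number, a hint from the data and not the design. Of the tested RNAs Vaultrc5 had the fewest counts, 28 to 64 per library.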
